A study of Mus musculus with 2 samples.

Results

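The aryl hydrocarbon receptor is a transcription factor that small planar molecules switch on, among them smoke constituents, dioxins and breakdown products of tryptophan. The genes described here are the receptor (Ahr), its DNA-binding partner (Arnt), its repressor (Ahrr), the feedback target Tiparp and the cytochrome P450 targets Cyp1a1, Cyp1a2 and Cyp1b1. They were taken as a fixed list of 7 genes out of 20886 with a named probe, by matching the RefSeq accession of every non-control probe to these symbols, which gave 11 of 39429 probes. They were chosen by their role in the pathway and with the log2 differences between these arrays known, that of Cyp1a1 among them, so the values below describe the genes and test nothing.

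Whole mouse lung was profiled on 2 one-colour expression arrays, 1 for C57BL6/N and 1 for C57BL6/N carrying a transgene that overexpresses HSP27, a small heat shock protein. Both samples were labelled male and 6 weeks of age, although sex-linked transcripts differed between them (values below), and both groups received bleomycin, which damages alveolar cells and is followed by scarring, at 1.25 mg/kg into the trachea 14 days before sampling. The series asks what HSP27 overexpression does in this fibrosis model, and no array of lung without bleomycin was used here. The promoter and species of the transgene, and whether a sample was 1 animal or a pool, are not given in the sources used here. Neither group had a second array, so the spread between animals is unknown and no test was possible.

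Without a ligand the receptor waits in the cytoplasm, bound to HSP90 and its co-chaperones, p23 among them. A ligand sends it to the nucleus, where it pairs with ARNT and binds elements with the core GCGTG. The CYP1 enzymes it induces oxidise and clear many of its ligands, while the repressor AHRR and the ADP-ribosyltransferase TIPARP, both induced too, restrain it. In lung, Cyp1a1 is known to be low at rest and inducible in endothelium, club cells and alveolar type 2 cells, whereas Cyp1b1 is known mostly from stromal cells and is inducible through the same receptor.

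Cyp1a1 was 3.86-fold lower in the transgenic lung, while Cyp1b1 was 1.49-fold higher and the receptor, partner, repressor and Tiparp lay within 1.5-fold. Cyp1a2 was not well above background on either array. Of the 7 genes, 6 were measured on both arrays. At a 1.5-fold threshold 1 was lower, a call made for 8.31% of all 15495 genes measured, and 0 were higher, a call made for 10.2%. These counts use the values by which the genes came to be listed, and nothing is read from them. The median log2 difference (transgenic minus C57BL6/N) over the 6 was -0.15, beside -0.04 over all measured genes. The plot of probe signals shows Cyp1a1 with the widest gap between the arrays and both Cyp1a2 points at background.

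**Figure D1:**
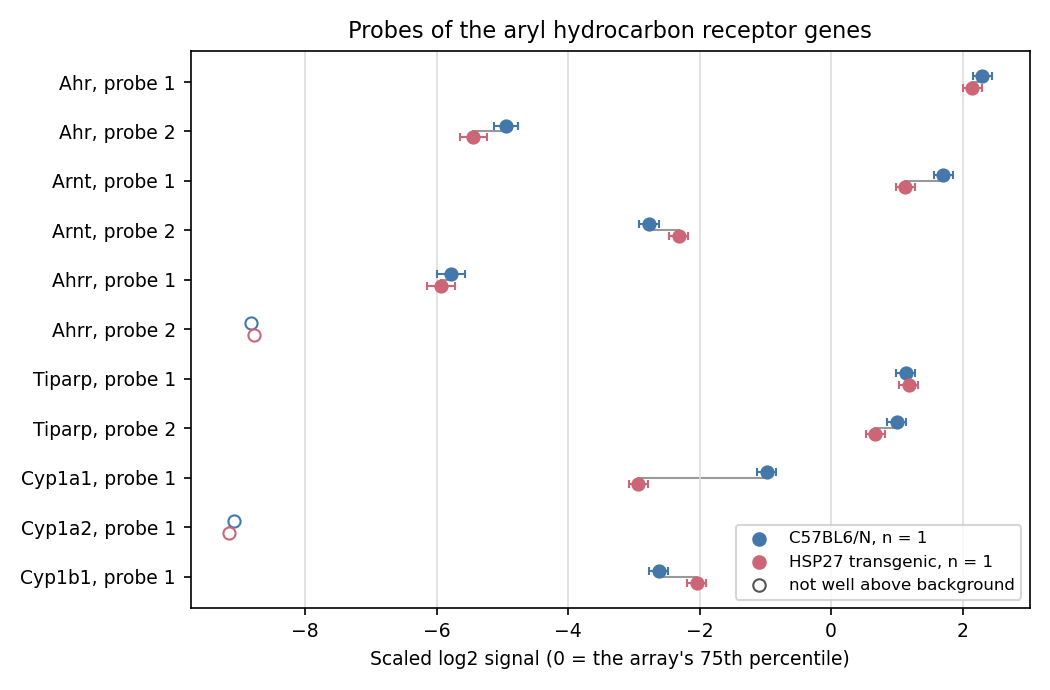
Scaled log2 signal of each of the 11 probes on the C57BL6/N array (blue) and the HSP27 transgenic array (red), 1 array each, where 0 is the array's 75th percentile. Bars are the scanner software's own error of a spot and open circles are spots not well above background. Cyp1a1 runs from -0.98 to -2.93, and the 2 probes of Arnt lie in opposite directions.

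Signals below are processed spot intensities in arbitrary units, and differences are on the log2 scale after each array's 75th percentile (1287 and 1426) was subtracted. Each of the 11 probes had 1 spot per array, so their only error is the software's error model for the signal, which gave 0.20 to 0.30 for the log2 differences of the 9 usable probes. Other probes, printed in 10 spots, had a spot-to-spot SD of the difference of 0.15 in the dimmest, 0.06 in the middle and 0.05 in the brightest group of 105. Neither error covers variation between animals. Between 69.3% and 69.4% of probes were well above background, such signals started at 11.9 and 12.5, and none was saturated. The lung label was borne out by Sftpc, the surfactant protein of alveolar type 2 cells, at 448223 and 376982, and by Scgb1a1 of club cells at 369700 and 359014. Signals of different probes are not comparable as levels, so the genes are not ranked by abundance.

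The receptor itself differed little. The brighter Ahr probe read 6323 in C57BL6/N lung and 6305 in transgenic lung, a log2 difference of -0.15 with a software error of 0.20. The dimmer one read 41.8 and 32.7, a difference of -0.50 (error 0.27), and these signals were 3.50 and 2.62 times the lowest signal well above background. Both probes were a little lower on the transgenic array, and their mean was -0.33. The mean depended on the dim probe, since the brightest probe alone and a stricter filter on dim probes each gave -0.15. Over all genes, 22.2% had a lower value than Ahr.

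The probes of Arnt, the partner that the receptor shares with the hypoxia-inducible factors, disagreed. The brighter probe read 4189 and 3122, a difference of -0.57 (error 0.20). The other read 189 and 286, a difference of 0.45 (error 0.21). They thus stood 1.03 apart and averaged to -0.06, so the mean does not describe either. Among 3413 genes with 2 usable probes, 3.40% had probes at least as far apart, and the median gap was 0.24. Both Arnt probes carry the same RefSeq accession, and which transcripts each one detects was not tested.

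The repressor Ahrr was near the limit of detection. Its brighter probe read 23.4 on both arrays, 1.96 and 1.87 times the lowest signal well above background, a scaled difference of -0.15 (error 0.30). Its other probe read 2.85 and 3.23 and was not well above background on either array. At these signals a modest difference in Ahrr could not have been seen.

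Tiparp, whose product ADP-ribosylates the receptor and is induced by it, was bright and nearly level. One probe read 2831 and 3226, a difference of 0.04, and the other 2567 and 2265, a difference of -0.33 (error 0.20 for each). The mean was -0.14. The sign of Tiparp turned to 0.04 when the brightest probe alone was taken, so no direction is given for it.

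Cyp1a1, the target most often used to read the receptor's activity, had the largest difference of the list. Its single probe read 652 (software error 65.3) on the C57BL6/N array and 187 (error 19.0) on the transgenic array. That is a log2 difference of -1.95 with a software error of 0.21. The lower signal stood far over 12.5, the lowest signal well above background on that array. The gap was already present in the unprocessed pixels, where the median was 563 over a local background of 35 on the C57BL6/N array and 196 over 31 on the transgenic array. Of 15495 genes measured, 18 had a lower difference than Cyp1a1, and 1.87% of genes were at least 2-fold lower. The value rests on 1 probe and 1 spot per array. It ran from -1.95 to -1.58 over the alternatives tried, except for a background correction fitted on all spots, which gave 0.70. With 1 probe and 1 spot, only other scalings between arrays and other background corrections could move it appreciably.

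Cyp1a2, the neighbouring gene and close relative that in the adult is chiefly a liver enzyme, read 2.37 and 2.49. It was below the limit of detection on both arrays, so no fold is given. Cyp1a1 and Cyp1a2 transcripts are alike in sequence, and a signal of the Cyp1a2 transcript at the Cyp1a1 probe was not tested.

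Cyp1b1 was higher, in the direction opposite to Cyp1a1. Its probe read 209 (software error 21.1) and 345 (error 34.6), a log2 difference of 0.57 (error 0.21). This lies just under 1.5-fold, which is 0.58 on this scale. With other scalings between arrays it was 0.61 to 0.66, just past it, so whether Cyp1b1 counts as higher depends on the scaling. Of all genes, 89.4% had a lower value. The 2 CYP1 genes that were measured therefore stood 2.52 apart on the log2 scale.

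**Figure D2:**
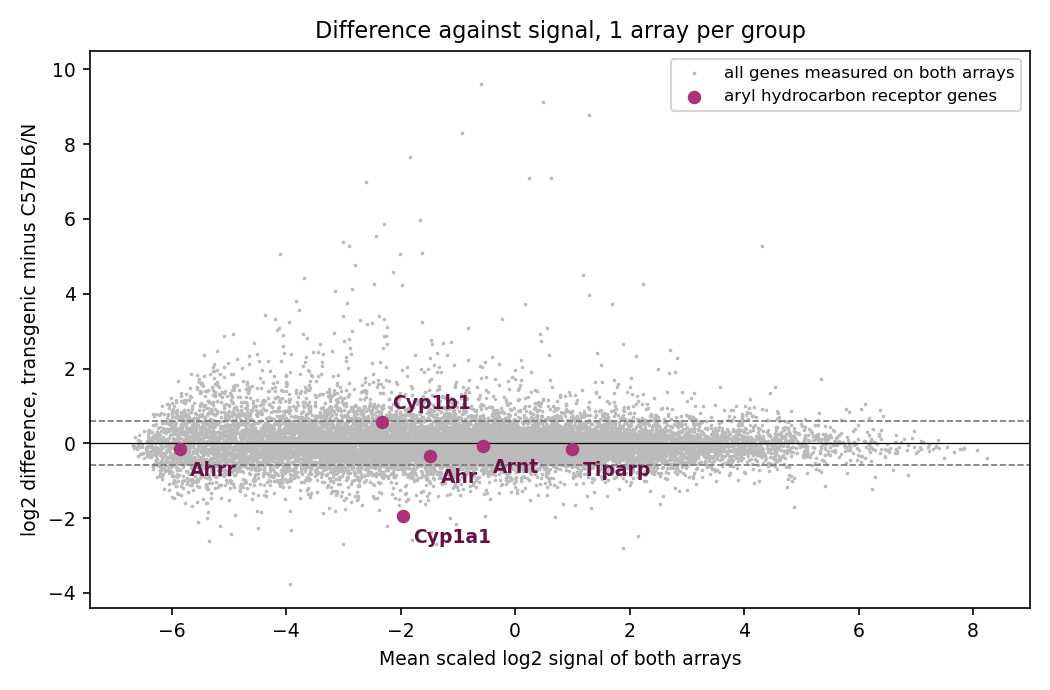
Log2 difference (transgenic minus C57BL6/N) of each of 15495 genes against its mean scaled log2 signal over both arrays, with the 6 measured members in purple and 1.5-fold as dashed lines. Cyp1a1 at -1.95 lies at the lower edge of the grey points at its signal, Cyp1b1 at 0.57 on the upper line, and the other 4 members inside the lines.

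The stretch just before each gene's start was searched for the receptor's core element, after the array values were seen. Of the 7 genes, 6 had an entry among the RefSeq promoter sequences of GRCm38.p6, and Ahr had none. The core GCGTG was looked for on both strands (as GCGTG or CACGC) in the 250 bases before the start. It was present for 5 of the 6 genes, against 28.2% of 32851 promoters of the same length. Capitals mark the core in the sequences below, which show the 3 CYP1 genes, of which Cyp1a2 alone lacked it, and Ahrr, which held it most often.
Cyp1a1, chr9:57697363-57697612 (+ strand): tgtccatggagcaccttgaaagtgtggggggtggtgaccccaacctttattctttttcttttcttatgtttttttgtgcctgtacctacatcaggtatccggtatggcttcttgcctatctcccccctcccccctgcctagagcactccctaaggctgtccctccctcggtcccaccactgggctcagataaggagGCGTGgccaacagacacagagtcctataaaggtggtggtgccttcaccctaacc
Cyp1a2, chr9:57683656-57683905 (- strand): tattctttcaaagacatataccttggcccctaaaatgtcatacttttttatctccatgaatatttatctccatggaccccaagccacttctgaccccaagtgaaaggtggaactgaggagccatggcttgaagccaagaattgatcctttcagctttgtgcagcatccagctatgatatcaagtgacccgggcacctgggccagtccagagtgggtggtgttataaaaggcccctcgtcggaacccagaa
Cyp1b1, chr17:79715062-79715311 (- strand): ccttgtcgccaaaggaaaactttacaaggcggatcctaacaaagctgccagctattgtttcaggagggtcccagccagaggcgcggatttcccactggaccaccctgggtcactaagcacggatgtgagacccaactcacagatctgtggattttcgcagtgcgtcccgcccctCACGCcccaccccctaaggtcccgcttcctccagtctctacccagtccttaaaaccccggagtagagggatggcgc
Ahrr, chr13:74292332-74292581 (- strand): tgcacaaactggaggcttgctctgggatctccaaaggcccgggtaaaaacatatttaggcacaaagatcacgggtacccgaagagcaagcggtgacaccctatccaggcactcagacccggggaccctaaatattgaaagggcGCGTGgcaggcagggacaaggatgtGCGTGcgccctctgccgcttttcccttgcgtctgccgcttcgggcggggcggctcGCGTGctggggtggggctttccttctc

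In Cyp1a1 the core began 54 bases before the start on the gene's strand, and in Cyp1b1 76 bases before it, read on the opposite strand. Ahrr held 3, beginning 107, 82 and 27 bases before the start, and the last of these matched the longer form TNGCGTG, found in 4.10% of promoters. Arnt and Tiparp held 1 core each. Cyp1a1 and Cyp1a2 each carried TATAAA on the gene's strand, 30 and 29 bases before the start, a motif of 7.59% of promoters. The core was thus present in the window of Cyp1a1 and of Cyp1b1, and a link between the core and the array differences was not tested. GC content of the window was 53.6% for Cyp1a1, 47.2% for Cyp1a2 and 58.0% for Cyp1b1. It was 60.4% for Ahrr, 57.2% for Arnt and 75.2% for Tiparp, beside a median of 52.4% over all promoters. The motif shares over all promoters were not matched for GC content. A match is only a match of letters, and the well-known enhancer of Cyp1a1 lies farther upstream than this window.

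Other genes of the pathway showed no shift in common. Beside the counts in these lists, 10.2% of all measured genes passed 1.5-fold upward and 8.31% downward. Among 6 genes of the receptor's cytoplasmic complex and its turnover, 0 passed 1.5-fold in either direction, and the median was -0.31. The HSP90 chaperones Hsp90aa1 and Hsp90ab1 were at -0.35 and -0.34, and Ptges3, which encodes p23, at -0.27.

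Of 10 measured genes that pair with ARNT, are its paralogues or serve as coactivators, 1 was higher and 0 lower. The shares over all genes were 10.2% and 8.31%. The median of the 10 was -0.10. The counts were 0 higher and 2 lower with the stricter filter on dim probes, 1 and 2 with the brightest probe per gene, and 0 and 0 with a background correction restricted to spots above their background. Over all genes the stricter filter gave 1001 higher and 870 lower of 12623. The brightest probe gave 1575 and 1329 of 15495, and the restricted correction 986 and 682 of 15494. The one past 1.5-fold was Npas4, a factor known from neurons, at low signals of 34.4 and 67.1. Hif1a, the hypoxia-inducible factor that competes for ARNT, was at 0.48 and Epas1, its endothelial relative, at -0.30.

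Further genes reported to respond to the receptor went their own ways. Of 22 measured, 5 passed 1.5-fold upward and 1 downward, beside 10.2% and 8.31% of all genes. The median of the 22 was 0.03. Ereg, an epidermal growth factor family ligand, read 119 and 410 (1.63), and Aldh3a1, an aldehyde dehydrogenase of the receptor's gene battery, 1783 and 5265 (1.41). Scin, an actin-severing protein, was at 1.33 and Ugt1a6b, a glucuronidating enzyme whose exons are partly shared with its family, at 0.65. Ugt1a6a of the same family went the other way, at -0.47, with low signals of 53.6 and 42.8. Lrat, which stores retinol as esters, was at -0.71. The quinone reductase Nqo1, named here after its value was seen, read 276 and 327, a difference of 0.09. None of these 22 was as low as Cyp1a1. With the restricted background correction 3 were higher and 1 lower, beside 986 and 682 of all 15494 genes.

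Of 11 measured enzymes that make or clear receptor ligands, 2 were higher and 1 lower, beside 10.2% and 8.31% of all genes. The median of the 11 was 0.08. Tdo2, which opens the tryptophan ring to start the kynurenine route, read 16.7 and 67.4, a difference of 1.86. Its C57BL6/N signal was near the limit of detection, as signals well above background started at 11.9 on that array. Il4i1, an amino acid oxidase of immune cells, was at 0.62 (1936 and 3308), and Kyat3, a kynurenine aminotransferase, at -0.84 (309 and 191). Ido1, the inducible enzyme of the same first step, was not measured on both arrays. The higher count was 4 after cyclic loess and 1 with the restricted background correction. Over all genes it was 1931 of 15495 and 986 of 15494.

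Cyp1a1, listed with its difference known, also had a low value among cytochrome P450 genes at large. Others were taken by symbol, as Cyp followed by a number, letters and a number. Symbols of another form, such as Cyp51 (at 0.58) and Cyp4a12b, were thus left out. Of 87 such others with a probe, 42 were measured, with a median of 0.01. Of the 42, 6 passed 1.5-fold upward and 4 downward, beside 10.2% and 8.31% of all genes. One of them, Cyp26b1, which degrades retinoic acid, was lower than Cyp1a1 at -2.79. Cyp2f2 and Cyp2b10, P450 enzymes abundant in bronchiolar and alveolar epithelium, were at 0.02 and -0.45. Cyp1b1 had a higher value than 36 of the 42.

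Markers of some, but not all, cell types known to express the CYP1 genes differed between the same 2 arrays. Beside shares of 8.31% downward and 10.2% upward over all genes, 13 of 20 pan-endothelial markers passed 1.5-fold downward and 1 upward. The median was -0.67, and their summed scaled signal on the transgenic array was 0.61 times that on the C57BL6/N array. Tie1 was at -1.10, Cldn5 at -1.02, Cdh5 at -0.68 and Pecam1 at -0.43, while Ackr1, a marker of venules, was at 2.54. Cyp1a1 lay 1.28 below the endothelial median, and 0 of the 20 markers was as low. In whole lung, fewer cells of a type and less RNA per cell cannot be told apart, and the part of endothelial content in the Cyp1a1 difference was not tested. Alveolar type 2 markers had a median of -0.30 with 0 of 11 past 1.5-fold, and type 1 markers -0.56 with 4 of 9 lower. Of 10 club cell and secretory airway markers, 8 were higher and 0 lower, with a median of 5.62. The higher ones were secretory genes such as Reg3g at 9.13 and Bpifa1 at 8.78. Those within 1.5-fold were Scgb1a1, the main club cell product, at -0.19 and the club cell gene Cyp2f2 at 0.02. The median therefore does not describe club cells. Cyp1a1 was lower than all 10.

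Cyp1b1 lay inside the range of stromal markers. Of 14 fibroblast and mural cell markers, 9 were higher and 0 lower, beside 10.2% and 8.31% of all genes. The markers had a median of 0.88 and a range from -0.31 to 1.92. Their summed scaled signal was 1.64 times higher on the transgenic array. The marker of activated fibroblasts Cthrc1 was at 1.92 and the smooth muscle actin Acta2 at 1.51. Cyp1b1 was 0.30 below the stromal median, with 5 markers lower than it and 9 higher. The part of stromal content in its difference was not tested.

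**Figure D3:**
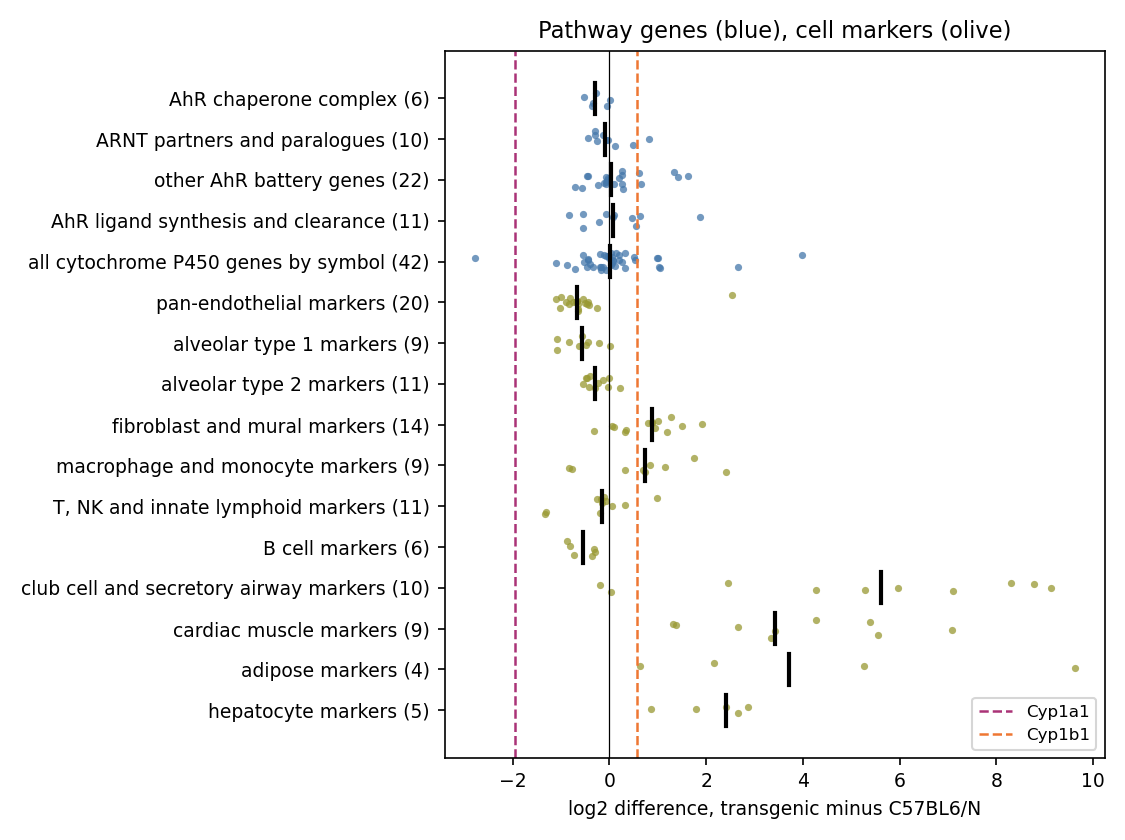
Log2 difference (transgenic minus C57BL6/N, 1 array each) of the measured genes of each list, with the number of genes in brackets and the median as a black bar. Dashed lines mark Cyp1a1 at -1.95 and Cyp1b1 at 0.57. Cyp1a1 lies left of all 20 pan-endothelial markers, and Cyp1b1 lies inside the spread of the fibroblast and mural markers.

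Other tissues and cells stood apart between the arrays as well. Cardiac muscle markers (9 of 9 higher, median 3.41, summed signal 7.35 times), adipose markers (4 of 4, 3.72, 14.6 times) and hepatocyte or plasma protein genes (5 of 5, 2.41, 2.07 times) were higher on the transgenic array. So were most of the club cell and secretory airway markers (summed signal 1.57 times), but not Scgb1a1 and Cyp2f2, as given above. Macrophage markers had 6 of 9 higher and 2 lower, T and NK cell markers 1 of 11 higher and 2 lower, and B cell markers 0 of 6 higher and 3 lower. Over all genes, 10.2% were higher and 8.31% lower. Although both samples were labelled male, Xist read 521 and 330 at its 2 probes in C57BL6/N lung and was not well above background in transgenic lung. The Y-linked Ddx3y, Eif2s3y and Uty were at 1.91 to 2.11. They read 508, 800 and 17.1 in C57BL6/N lung and 2437, 3338 and 72.5 in transgenic lung. The C57BL6/N array thus held signal of both Xist and Y-linked genes, and its source was not tested. The part of these differences in the values of the receptor genes was not tested.

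By the absolute gap between log2 differences over the 2 arrays, the genes nearest to Cyp1a1 were Ppp5c at -1.94, Gm3893 at -1.93 and Krt79 at -1.97. Each rests on 1 usable probe. Likeness over 2 arrays is a single number per gene and says no more than that these differences were of similar size.

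**Figure D4:**
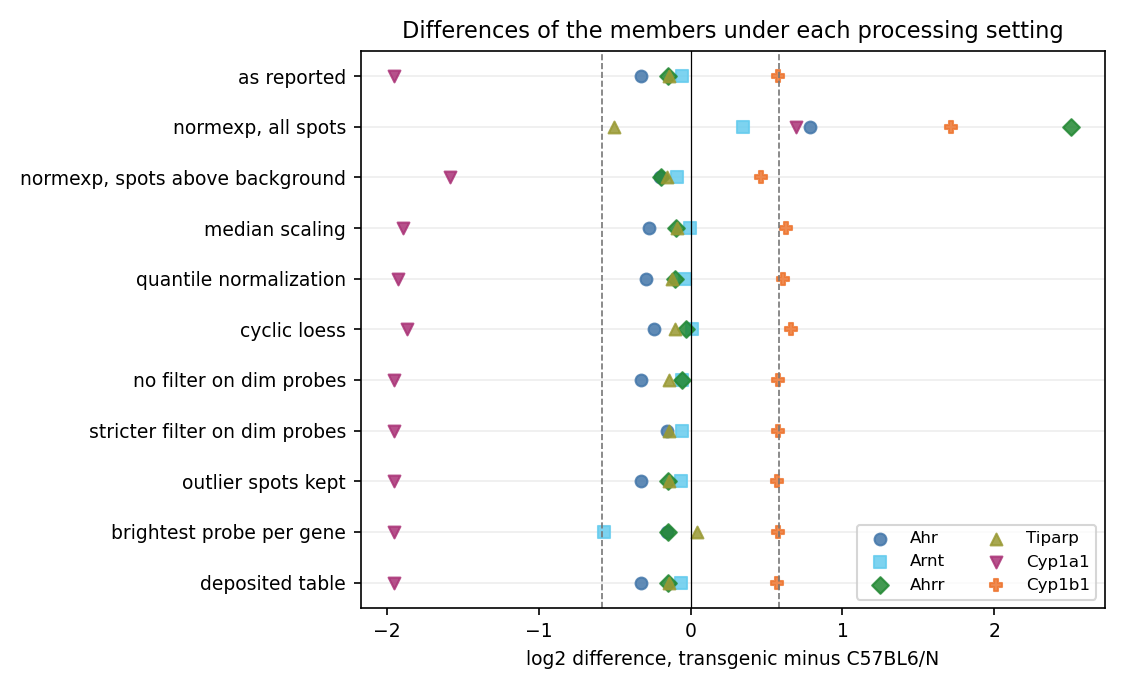
Log2 difference (transgenic minus C57BL6/N) of the 6 measured genes as reported and under each alternative processing, with 1.5-fold as dashed lines. Cyp1a1 stays at or below -1.58 in every setting but normexp on all spots, where it is at 0.70, and Cyp1b1 straddles the upper line.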

How the data were processed

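Per the labels, total RNA of whole lung was extracted with Trizol, and the amplified product carried Cy3. The deposited array files give intensity per spot, per the file headers from Agilent Feature Extraction 11.5.1.1, which subtracted background and removed trends within the array. The deposited series table is a linear intensity too, with medians of 110.6 and 118.2. For 39030 probes with 1 spot it equalled the processed signal within 0.1% on each array, so its scale and direction are known and it was not centred. Flags for background, saturation and outliers, per the file headers, were used as deposited. Both arrays shared 1 slide and 1 scan.

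Control and outlier spots were dropped, log2 signals averaged per probe, and each array's 75th percentile subtracted. A probe was usable where 50% or more of its spots stood well above background and none was saturated, on both arrays. A gene was the mean of its usable probes. Probes were named by unversioned RefSeq accession through a GRCm38.p6 gene table, which matched 27508. The array headers name mm9, so gene coordinates are not given, and promoter positions are those of the RefSeq table. There was no test, as each group has 1 array. The gene lists and members were chosen with earlier results of these data known. Named genes are all 7 members, up to 4 per direction of each pathway list and up to 2 per direction of each marker list past 1.5-fold, a few named for their role after their values were seen, and the 3 genes nearest Cyp1a1. Of the genes in these lists, 1 is not reported here. The gene step was tested on simulated data. limma 3.58.1 in R 4.3.3 gave normexp, quantile and cyclic loess values. The rest used Python 3.11.15 with pandas 2.3.3, numpy 2.4.6 and matplotlib 3.10.9. The 9 alternatives planned and 1 added later are given in the closing section. Normexp used the median pixel signals of spot and local background.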

Additional observations from a re-analysis of the deposited data

How the results depend on the processing

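Cyp1a1 was lower in 9 of 10 alternatives and Cyp1b1 higher in 10 of 10. Normexp on all spots (offset 50) moved the median of all genes to 0.60, a shift of 0.64, and reversed Cyp1a1 to 0.70, with 4 members at least 1.5-fold higher and 0 lower, and 7795 genes higher and 2972 lower. The transgenic array has 6 spots at or below their local background, which reaches 217431, and the C57BL6/N array 1. A normexp fit without such spots, chosen after seeing the data, gave Cyp1a1 -1.58 and counts of 986 genes higher and 682 lower, against 1582 and 1287 as reported. Members at least 1.5-fold higher numbered 1 (Cyp1b1) with median scaling, 1 with quantile normalization and 1 with cyclic loess. Without a filter on dim probes, 2526 genes were higher and 2080 lower, and a stricter filter left 1001 higher. The sign of Ahr changed only with normexp on all spots (0.79), that of Ahrr likewise (2.50). Arnt ranged from -0.57 with the brightest probe alone to 0.35 with normexp on all spots. Signal over background limits Ahrr and Cyp1a2, and the single array per group limits every value. No paired analysis was possible because each group has 1 array.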

Other observations

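Cyp1a1 and Cyp1a2 lie side by side, and the protein-coding genes next to them were looked at after the values were seen. On the Cyp1a2 side Csk, a kinase that restrains Src family kinases, was at 0.06 and Lman1l at 0.46. On the Cyp1a1 side the decapping factor gene Edc3 was at -0.43, the splicing kinase gene Clk3 at -0.39 and Arid3b, a DNA-binding protein gene with 3 probes, at -0.74. Ubl7, the next in order, was at -0.01. Of these 6 neighbours, 5 lay within 1.5-fold and Arid3b was lower, a call made for 8.31% of all genes.

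Among the other cytochrome P450 genes, Cyp2a4, a steroid hydroxylase gene with a near copy, Cyp2a5, that was not told apart from it here, read 797 and 13902, a log2 difference of 3.98. Cyp2e1, the ethanol-inducible enzyme abundant in liver and fat, was at 2.66, and Cyp7b1, an oxysterol hydroxylase, at 0.99. At lower signals, Cyp21a1 was at 1.04 (73.0 and 166), Cyp2d26 at 1.03 (19.8 and 45.0) and Cyp4f39 at 0.995 (39.4 and 87.0). On the lower side, Cyp17a1, an enzyme of androgen synthesis, read 3412 and 1764 (-1.10), and Cyp39a1 was at -0.71. Cyp4a31 was at -0.88, at low signals of 36.1 and 21.7. These genes were named after their values were seen.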
